A study of Mus musculus with 14 samples.

Results

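The monocyte chemokines and their receptors were followed here as 9 genes, Ccl2, Ccl6, Ccl7, Ccl8, Ccl9, Ccl12 and Cxcl10, which encode secreted ligands, and Ccr2 and Cx3cr1, which encode receptors. They were taken by name from a table of 54532 genes counted in 14 mouse hearts, and all 9 passed the filter on low counts that kept 16034 genes. The hearts came from male C57BL/6J mice of wild-type genotype, 8 weeks old at irradiation. Control_1d (n = 3) and Control_6w (n = 4) were not irradiated, whereas IRR_1d (n = 3) and IRR_6w (n = 4) had received a dose of 30 Gy of γ-rays to the front of the chest under pentobarbital, with the rest of the body behind lead. Hearts were collected 1 day or 6 weeks later, so that Control_6w and IRR_6w mice were also older than the 1-day mice. Whether the control mice were also anaesthetised was not stated, so that anaesthesia and irradiation cannot be told apart.

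Chemokines are small secreted proteins that steer leukocytes along a gradient through receptors of the G-protein coupled family. Ccr2 marks the classical monocytes that leave the bone marrow for the blood and enter injured tissue, while Cx3cr1, the receptor of fractalkine, is carried by patrolling monocytes and many resident macrophages. In the heart, resident macrophages lie between the cardiomyocytes, and Ccr2-positive cells of monocyte origin are known to join them after injury. Ccl2, Ccl7 and Ccl12 are ligands of Ccr2, Ccl8 is known in mice as a ligand of Ccr8, Ccl6 and Ccl9 are rodent chemokines that act through Ccr1, and Cxcl10 is an interferon-induced ligand of Cxcr3, a receptor of T and NK cells.

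Library totals ran from 13336746 to 16837265 counts, and markers of cardiomyocytes were present in each library, with a summed level of 4847 to 42914 CPM (the share of a library's counts that a gene takes, after TMM scaling). Several libraries stood apart. Of the genes at 2 to 5 CPM in the other libraries, 30.7% were at 0 counts in Control_1d replicate 1, 21.6% in IRR_6w replicate 3, 8.62% in IRR_6w replicate 4 and 1.98% in Control_6w replicate 1, against at most 0.445% elsewhere. Markers of another tissue were high in Control_6w replicate 3 (5 thymocyte genes, 2278 CPM), IRR_6w replicate 1 (5 lung epithelium genes, 420 CPM, and 4 atrial genes, 2822 CPM) and IRR_1d replicate 3 (atrial genes, 1168 CPM). Unirradiated hearts held atrial markers too, up to 536 CPM in Control_1d and 334 CPM in Control_6w. The summed level of 4 brown fat genes ran from 16.9 to 1087 CPM over the hearts, and its groups overlapped at both times. It was also highest in IRR_6w replicate 1, with 831 CPM in Control_6w replicate 3. One of the genes, Cox8b, alone ran from 82.8 to 462 CPM in Control_6w. None of the 4 was at 0 counts in IRR_6w replicate 1, Control_6w replicate 3 and IRR_1d replicate 3, while 2 were at 0 counts in each other heart. Calls among the members are therefore given again without the 3 libraries of mixed tissue and without the 4 libraries with low genes at 0 counts. In both fits 0 members were called at 1 day and between the controls. The share of all genes called there is not given, so these counts cannot be set against it.

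The 6 CC ligands lie on mouse chromosome 11 in the GRCm38 (mm10) build. Ccl2 (82035571-82037453), Ccl7 (82045712-82047525), Ccl12 (82101845-82103400) and Ccl8 (82115185-82116799) share a stretch of 81.2 kb on the plus strand, and Ccl9 (83572919-83578636) and Ccl6 (83587882-83593087) lie 1456 kb further on, next to each other on the minus strand. Cxcl10 lies on chromosome 5 (92346638-92348889, minus strand), and Ccr2 (124101950-124113557, plus strand) and Cx3cr1 (119901616-120069879, minus strand) lie on chromosome 9. Neighbouring ligands are related in sequence, but the longest run of bases shared by the transcripts of any pair was 25 (Ccl6 and Ccl9), far below the 150 bases of a read. Of the exonic bases, 5.91% of Cxcl10 overlapped Art3 and 1.73% of Cx3cr1 overlapped Gm33858, on the opposite strand in both cases. Whether strand was used in counting was not stated, so reads from these stretches could not be assigned.

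The promoters of 4 members are shown because these genes include both members called at 6 weeks (Ccr2 and Ccl8) and hold all the motif matches described other than TATAAA in Ccl9. RefSeq windows on GRCm38.p6, from 250 bases before to 50 bases after the gene start, were found for 7 of the 9 members, and Ccl2 and Ccl7 had none. Capitals mark matches to an interferon-stimulated response element core (GAAANNGAA), to κB sites (GGANTTTCC and GGGANTTCC), each on either strand, or to TATAAA on the strand of the gene.
Cxcl10, chr5:92348840-92349139, - strand: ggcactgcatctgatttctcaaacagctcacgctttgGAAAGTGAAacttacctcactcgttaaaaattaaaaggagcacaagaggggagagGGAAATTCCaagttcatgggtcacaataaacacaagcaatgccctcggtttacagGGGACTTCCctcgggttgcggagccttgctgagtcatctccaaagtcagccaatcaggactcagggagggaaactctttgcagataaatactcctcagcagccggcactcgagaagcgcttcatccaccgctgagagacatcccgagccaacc
Ccr2, chr9:124101933-124102232, + strand: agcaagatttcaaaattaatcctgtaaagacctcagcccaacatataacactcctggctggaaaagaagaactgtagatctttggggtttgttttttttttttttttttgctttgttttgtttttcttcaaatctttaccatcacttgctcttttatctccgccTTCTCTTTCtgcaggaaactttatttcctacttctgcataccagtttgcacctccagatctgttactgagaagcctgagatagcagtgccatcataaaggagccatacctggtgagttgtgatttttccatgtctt
Ccl8, chr11:82114935-82115234, + strand: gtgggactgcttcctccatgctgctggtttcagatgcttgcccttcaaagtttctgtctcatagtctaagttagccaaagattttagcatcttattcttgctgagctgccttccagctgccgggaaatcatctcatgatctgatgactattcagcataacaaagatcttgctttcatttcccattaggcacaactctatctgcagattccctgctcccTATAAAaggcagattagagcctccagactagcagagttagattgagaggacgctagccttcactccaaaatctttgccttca
Ccl12, chr11:82101595-82101894, + strand: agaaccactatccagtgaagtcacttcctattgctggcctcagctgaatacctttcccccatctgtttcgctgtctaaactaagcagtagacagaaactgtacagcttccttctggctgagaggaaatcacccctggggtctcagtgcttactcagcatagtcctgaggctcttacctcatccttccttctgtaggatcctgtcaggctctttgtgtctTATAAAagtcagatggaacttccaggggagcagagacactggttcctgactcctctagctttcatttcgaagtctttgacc
In Cxcl10 the capitals mark GAAAGTGAA at position -213, GGAAATTCC at -158 and GGGACTTCC at -103, counted from the gene start. In Ccr2 they mark TTCTCTTTC at -86, which is the response element core read on the other strand. The Ccr2 window follows the RefSeq start, which lies inside the gene as deposited. TATAAA stood at -32 in Ccl8, at -31 in Ccl12 and at -92 in Ccl9. The response element core was found in 2 of the 7 windows and in 8.56% of 32851 windows in all, the κB forms in 1 of 7 (1.25% and 1.68% of all windows) and TATAAA in 3 of 7 (8.32%). The palindromic GAS element TTCNNNGAA, in 8.30% of all windows, was in none of the 7. A match gives letters in a window only and does not show a bound factor.

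At 6 weeks all 9 members had a higher mean in the irradiated hearts, by 2.17- to 14.4-fold, and Ccr2 and Ccl8 passed the test. A gene was called where its fold change was above 2 or below 0.5 and its Benjamini-Hochberg adjusted p in edgeR's quasi-likelihood test was under 0.05 over all 16034 genes. By this rule 0.237% of all genes were called higher at 6 weeks, against 2 of the 9 members. In bulk tissue, more cells of a type and more RNA per cell cannot be told apart. Values below are TMM-scaled CPM of each heart, in the order of the replicate numbers.

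**Figure D1:**
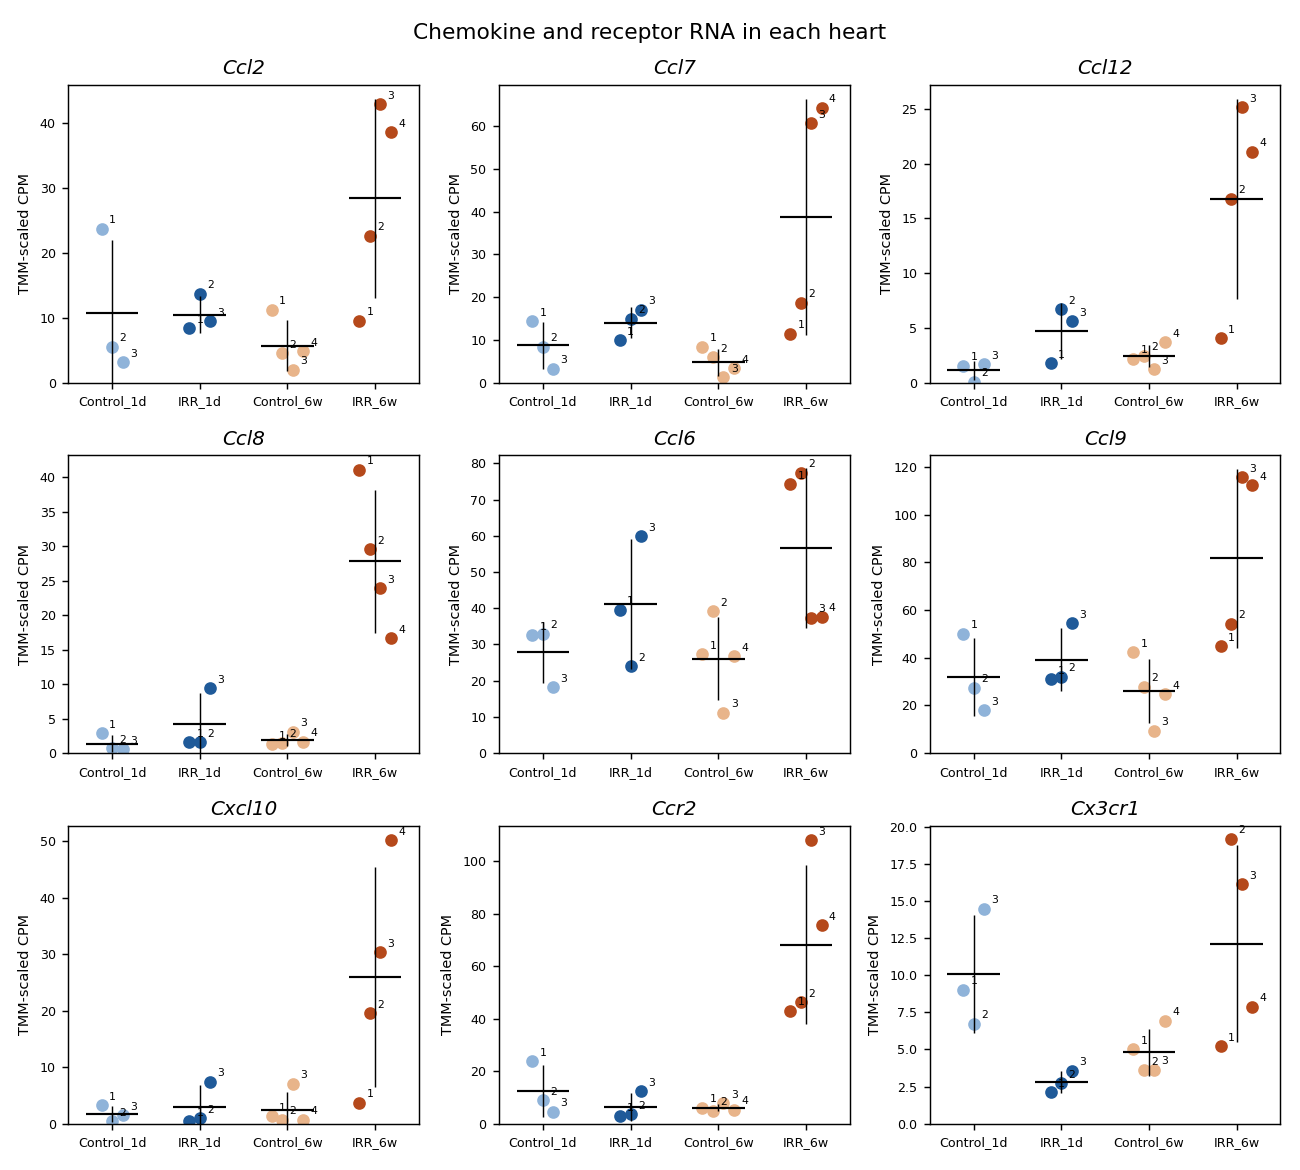
TMM-scaled CPM of each of the 9 genes (vertical axes, starting at 0) in each heart, by group; numbers beside points are replicates, horizontal lines are group means and vertical lines SD (cut at 0). Ccr2 and Ccl8 in the 4 IRR_6w hearts sit above every other heart, while in Ccl2, Ccl6, Cxcl10 and Cx3cr1 the lowest IRR_6w heart lies within the range of Control_6w.

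Ccr2, the receptor of classical monocytes, stood at 6.01, 4.97, 7.92 and 5.32 CPM in Control_6w and at 43.1, 46.3, 108 and 75.6 CPM in IRR_6w. The lowest irradiated heart was more than 5 times the highest control, and the group means were 6.06 ± 1.31 (SD, n = 4) and 68.3 ± 30.3 (SD, n = 4). Ccr2 rose 11.3-fold (log2 fold change 3.49, SE 0.57, edgeR adjusted p = 0.0250). At 1 day it stood at 23.8, 8.96 and 4.62 CPM in Control_1d and at 2.90, 3.60 and 12.4 CPM in IRR_1d, with overlapping groups, the highest irradiated heart being the one rich in atrial markers. This gave a log2 fold change of -0.99 at 1 day (SE 0.61, with an adjusted p of 1 in edgeR), which was -0.10 without Control_1d replicate 1, the library with most low genes at 0 counts, and -1.94 without IRR_1d replicate 3. The 6-week call was kept in 9 of 14 fits that each left out 1 library. It was lost without Control_6w replicate 1 (edgeR adjusted p = 0.0968), replicate 2 (0.126) or replicate 4 (0.0804) and without IRR_6w replicate 3 (0.0928) or replicate 4 (0.0999), while the log2 fold change over all 14 such fits stayed between 3.18 and 3.66.

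Cx3cr1, the receptor of fractalkine, was not called at either time. Its levels were 9.03, 6.75 and 14.5 CPM in Control_1d and 2.13, 2.75 and 3.57 CPM in IRR_1d. Every irradiated heart was below every control at 1 day, as in 4.14% of all genes. Its log2 fold change of -1.84 (SE 0.56) came with an unadjusted p of 0.00503 and an edgeR adjusted p of 1, so it was not called. At 6 weeks the levels were 5.02, 3.60, 3.65 and 6.94 CPM in the controls and 5.23, 19.2, 16.2 and 7.89 CPM after irradiation. IRR_6w replicate 1 lay within the controls, and the log2 fold change of 1.33 (SE 0.47) was not called (edgeR adjusted p = 0.369). Fractalkine itself, Cx3cl1, which was picked after its values were seen, stood at 16.5, 16.3, 6.61 and 14.8 CPM in Control_6w and at 10.8, 25.7, 25.4 and 26.4 CPM in IRR_6w and was not called (log2 fold change 0.70, SE 0.41, edgeR adjusted p = 0.678).

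The 2 receptors thus stood in different proportions. Counts of Ccr2 over those of Cx3cr1 were 1.2, 1.38, 2.17 and 0.767 in Control_6w and 8.24, 2.41, 6.70 and 9.59 in IRR_6w. In the 1-day groups the ratio was 2.64, 1.33 and 0.319 without irradiation and 1.36, 1.31 and 3.46 with it. The ratio in IRR_6w lay above that of Control_6w in each heart, but IRR_6w replicate 2 lay below Control_1d replicate 1 and IRR_1d replicate 3. The ratio was formed from counts not divided by gene length and is given as a description, with no test.

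**Figure D2:**
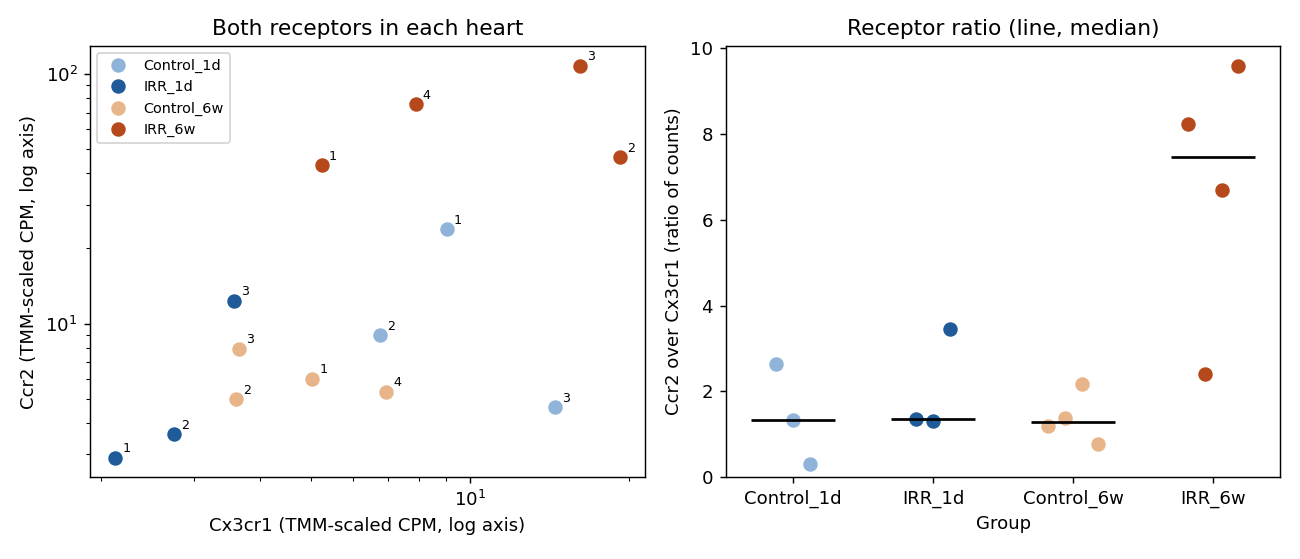
Left, Ccr2 against Cx3cr1 in TMM-scaled CPM, 1 point per heart, with both axes logarithmic; right, the ratio of their counts per heart by group, with medians as lines. In IRR_6w the ratio is 2.41 to 9.59, against 0.319 to 3.46 in the other 3 groups.

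The ligands of Ccr2 had folds above 1 at 6 weeks in each case, but their hearts were far apart. Ccl2, the main ligand of Ccr2, stood at 11.3, 4.59, 1.99 and 4.85 CPM in Control_6w and at 9.55, 22.7, 42.9 and 38.6 CPM in IRR_6w. IRR_6w replicate 1 lay below Control_6w replicate 1, and the other 3 irradiated hearts lay above all controls. This difference, 2.33 on the log2 scale (SE 0.67), was not called (edgeR adjusted p = 0.196). Ccl7, also a ligand of Ccr1 and Ccr3, stood at 8.37, 5.97, 1.25 and 3.44 CPM in Control_6w and at 11.4, 18.7, 60.7 and 64.4 CPM in IRR_6w. Its groups did not overlap, with IRR_6w replicates 3 and 4 more than 3 times the other pair, and the log2 fold change of 3.03 (SE 0.67) was not called (edgeR adjusted p = 0.0839). Without IRR_6w replicate 1, the library with lung and atrial markers, Ccl7 was called (log2 fold change 3.34, edgeR adjusted p = 0.0356), as it was with library totals in place of TMM (adjusted p = 0.0495) or with no low-count filter (adjusted p = 0.00808). Ccl12, another ligand of Ccr2, stood at 2.21, 2.45, 1.25 and 3.71 CPM in Control_6w and at 4.08, 16.8, 25.1 and 21.1 CPM in IRR_6w. Its groups were also apart, by a small margin at IRR_6w replicate 1, and the log2 fold change was 2.80 (SE 0.74, edgeR adjusted p = 0.151).

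The groups of Ccl2 and of Ccl7 overlapped at 1 day. Ccl2 was at 23.8, 5.54 and 3.16 CPM in Control_1d and at 8.38, 13.7 and 9.45 CPM in IRR_1d, and Ccl7 at 14.4, 8.46 and 3.31 CPM and at 9.99, 14.9 and 17.1 CPM. In both genes the highest control was Control_1d replicate 1, the library with most low genes at 0 counts. The log2 fold changes were -0.05 (SE 0.74) and 0.68 (SE 0.72), and without this control they were 1.28 and 1.26. That of Ccl7 was 0.32 without Control_1d replicate 3. Ccl12 was the one ligand whose groups were apart at 1 day, with 1.57, 0.101 and 1.69 CPM in Control_1d (25, 1 and 22 counts) and 1.80, 6.69 and 5.62 CPM in IRR_1d (28, 78 and 85 counts). The log2 fold change was 2.04 (SE 0.85) with an unadjusted p of 0.0302 and an edgeR adjusted p of 1. It was not called.

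Ccl8, a monocyte chemoattractant protein of the same cluster, had the largest fold of the 9 members at 6 weeks. It stood at 1.29, 1.53, 3.13 and 1.68 CPM in Control_6w (17 to 55 counts) and at 41.1, 29.5, 23.9 and 16.6 CPM in IRR_6w (350 to 714 counts). The means were 1.91 ± 0.831 (SD, n = 4) and 27.8 ± 10.3 (SD, n = 4), and each irradiated heart was more than 5 times the highest control. Ccl8 rose 14.4-fold (log2 fold change 3.85, SE 0.70, edgeR adjusted p = 0.0434). Here IRR_6w replicate 1 was the highest heart and replicate 4 the lowest, the reverse of Ccl7. The call was kept in 6 of 14 fits that left out 1 library, with log2 fold changes of 3.60 to 4.20. It was lost without Control_6w replicate 1 (edgeR adjusted p = 0.147), replicate 2 (0.181) or replicate 4 (0.116), without IRR_6w replicate 2 (0.0843), replicate 3 (0.109) or replicate 4 (0.106), and without Control_1d replicate 2 (0.0619) or replicate 3 (0.0566), which are not in the comparison itself but share its estimate of spread. At 1 day Ccl8 was at 2.88, 0.705 and 0.616 CPM in Control_1d and at 1.61, 1.63 and 9.38 CPM in IRR_1d. The log2 fold change of 1.56 (SE 0.75, with an adjusted p of 1 in edgeR) was 0.19 without IRR_1d replicate 3 and 2.67 without Control_1d replicate 1.

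Ccl6 and Ccl9, the neighbouring pair of Ccr1 ligands, had the 2 highest mean levels per length of the members in Control_6w. Ccl9 stood at 42.3, 27.9, 9.46 and 24.7 CPM in Control_6w and at 44.8, 54.2, 116 and 112 CPM in IRR_6w. Its groups were apart, though IRR_6w replicate 1 exceeded Control_6w replicate 1 by less than 3 CPM, and the log2 fold change of 1.65 (SE 0.46) was not called (edgeR adjusted p = 0.179). Ccl6 stood at 27.3, 39.2, 11.2 and 26.7 CPM in Control_6w and at 74.2, 77.4, 37.4 and 37.6 CPM in IRR_6w. In Ccl6 the high hearts were IRR_6w replicates 1 and 2, whereas in Ccl9 they were replicates 3 and 4, and Control_6w replicate 2 lay above the lower pair. Ccl6 had the smallest difference of the 9, at 1.12 on the log2 scale (SE 0.40, edgeR adjusted p = 0.379). At 1 day the values were 50.1, 27.5 and 18.0 CPM in Control_1d against 31.1, 32.1 and 54.6 CPM in IRR_1d for Ccl9, and 32.6, 32.9 and 18.2 CPM against 39.6, 24.0 and 59.8 CPM for Ccl6. Both groups overlapped, with log2 fold changes of 0.30 (SE 0.52) and 0.56 (SE 0.46).

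Cxcl10, the interferon-induced ligand of Cxcr3, had the widest spread between the hearts of IRR_1d, Control_6w and IRR_6w, by the ratio of highest to lowest. It stood at 1.29, 0.689, 7.06 and 0.674 CPM in Control_6w and at 3.74, 19.5, 30.3 and 50.2 CPM in IRR_6w. The thymocyte-marked library, Control_6w replicate 3, exceeded IRR_6w replicate 1, the library with lung and atrial markers, and the other hearts were apart. Its large log2 fold change, 3.40, came with the largest error of the 9 (SE 1.07, edgeR adjusted p = 0.272). Without the 3 libraries of mixed tissue it was 5.22 (SE 0.73) and called (edgeR adjusted p = 0.00567). The part of these other tissues in the result was not tested. At 1 day Cxcl10 was at 3.26, 0.403 and 1.46 CPM in Control_1d and at 0.451, 0.944 and 7.47 CPM in IRR_1d, where replicate 3, rich in atrial markers, was the high heart. The log2 fold change of 0.77 (SE 1.17) became -1.31 without that heart. Its receptor Cxcr3, picked after its values were seen, was at 0, 0.306, 0.968 and 0.269 CPM in Control_6w and at 1.61, 1.51, 3.94 and 2.47 CPM in IRR_6w and was not called (log2 fold change 2.58, SE 1.31, edgeR adjusted p = 0.609).

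**Figure D3:**
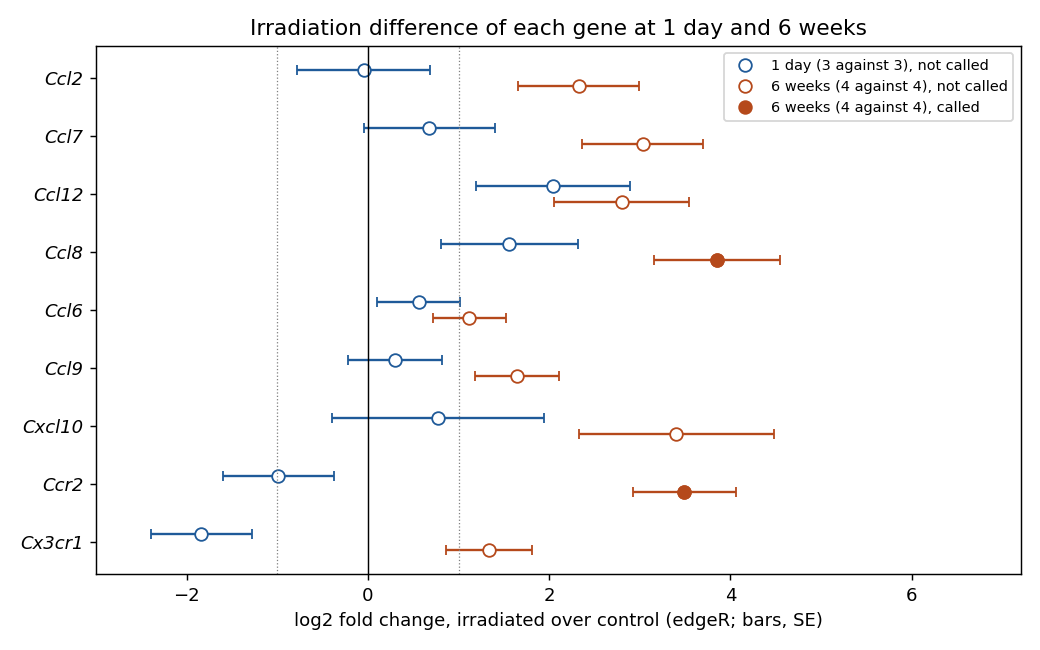
log2 fold change of irradiated over control hearts for each gene, with SE as bars, at 1 day (3 against 3) and 6 weeks (4 against 4); filled points were called and dotted lines mark the fold limits. At 6 weeks all 9 points lie above 1, from 1.12 (Ccl6) to 3.85 (Ccl8), while at 1 day they run from -1.84 (Cx3cr1) to 2.04 (Ccl12).

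Across the members at 6 weeks the median log2 fold change was 2.80, beside -0.09 over all genes tested. At an unadjusted p under 0.05 with the same fold limits 9 of 9 members were higher, against 3.69% of all genes, and 7 to 9 leaving out each library. By DESeq2 with adjusted p 7 of 9 were called higher, against 1.82% of all genes, and the remaining pair was Ccl6 and Cx3cr1. By limma-voom Ccr2 alone was called, and the share of all genes called in that fit is not given. The groups were apart for Ccr2, Ccl7, Ccl8, Ccl9 and Ccl12, which is 5 of 9 members against 4.08% of all genes. Without the 3 libraries of mixed tissue edgeR called 4 members (Ccr2, Ccl7, Ccl8 and Cxcl10) higher, against 0.998% of all genes in that fit, and without the 4 libraries in which low genes were at 0 counts it called 0 members and 0% of all genes higher, with 2 irradiated hearts left and log2 fold changes of 1.27 (Ccl9) to 4.06 (Ccl8).

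At 1 day no member was called by edgeR, where 0.0249% of all genes were called in either direction. The median log2 fold change of the members was 0.56, beside 0.06 over all genes. At an unadjusted p under 0.05 Ccl12 was higher, 1 of 9 against 1.56% of all genes, and Cx3cr1 was lower, 1 of 9 against 0.674%. Leaving out each library gave 1 to 3 members in both directions together, with Cx3cr1 in all 14 fits. DESeq2 called 0 of 9 (0.197% of all genes in either direction), as did limma-voom. The groups were apart with higher values for 1 member, Ccl12 (6.52% of all genes), and with lower values for Cx3cr1. On simulated counts of the same group sizes, edgeR called 57% of genes with a log2 fold change of 3 at 1 day and 63% at 6 weeks. A difference of that size could thus be missed at either group size, and smaller differences were not simulated.

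Between the control groups, 6 weeks apart, edgeR called 0 members and 0% of all genes in either direction. At an unadjusted p under 0.05 Cx3cr1 was lower in Control_6w, 1 of 9 against 1.03% of all genes, with a log2 fold change of -1.07 (SE 0.50, edgeR unadjusted p = 0.0497, adjusted p = 0.902). Leaving out each library gave 0 to 1 members at that limit, either Cx3cr1 or Ccr2. DESeq2 called 0 of 9 (0.144% of all genes in either direction) and limma-voom 0. In the other 8 members the log2 fold changes ran from -1.04 (Ccr2, but -0.16 without Control_1d replicate 1) to 1.07 (Ccl12, but 0.56 without Control_1d replicate 2), and the groups overlapped for all 9.

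Between the irradiated groups all 9 members had a higher mean at 6 weeks than at 1 day, with a median log2 fold change of 1.83 beside -0.02 over all genes. This comparison shares the IRR_6w hearts with the one above and is not independent of it. No member was called by edgeR (0.0374% of all genes in either direction), while 5 of 9 were higher at an unadjusted p under 0.05 (3.06% of all genes; 3 to 8 leaving out each library) and DESeq2 called 3 of 9, Ccr2, Ccl8 and Cx3cr1 (0.862% of all genes higher). limma-voom called 0. Ccr2 had the largest difference, 3.44 on the log2 scale (SE 0.64, edgeR adjusted p = 0.0754), and it was called without IRR_1d replicate 3 (log2 fold change 4.39, edgeR adjusted p = 0.0452) or without Control_6w replicate 3 (3.44, edgeR adjusted p = 0.0492). Without the 3 libraries of mixed tissue edgeR called 3 members higher, Ccr2, Ccl8 and Cxcl10, against 0.565% of all genes, and without the 4 libraries with low genes at 0 counts 0. Cx3cr1 followed Ccl8 and Cxcl10 with 2.10 (SE 0.54, edgeR adjusted p = 0.363). The groups were apart for 3 of 9 members, Ccr2, Ccl8 and Cx3cr1, against 5.47% of all genes.

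The change in the irradiation effect from 1 day to 6 weeks was tested as an interaction. It was above 0 for all 9 members (for Ccl12 -0.21 without the 4 libraries with low genes at 0 counts), but edgeR called none of them and 0% of all genes. It was largest for the receptors, at 4.48 on the log2 scale for Ccr2 (SE 0.83, unadjusted p = 8.86e-05, edgeR adjusted p = 0.343) and 3.17 for Cx3cr1 (SE 0.73, unadjusted p = 0.000630, edgeR adjusted p = 0.505). At an unadjusted p under 0.05 it was above the fold limit in 5 of 9 members (1.98% of all genes). Leaving out each library gave 2 to 6 members, with 2 (Ccr2 and Cx3cr1) without Control_1d replicate 1, IRR_1d replicate 1 or Control_6w replicate 4, and 3 without Control_6w replicate 2 or IRR_6w replicate 3 or 4. DESeq2 called Ccr2 and Cx3cr1, 2 of 9 (0.253% of all genes higher). limma-voom called 0. For Ccl12 it was 0.76 (SE 1.09) and for Ccl6 0.56 (SE 0.61), so that for these a change in effect between the times was not detectable. Without the 3 libraries of mixed tissue edgeR called the change for Ccr2 (5.76, adjusted p = 0.0312) and Cxcl10 (6.56, adjusted p = 0.0357), against 0.176% of all genes higher, and without the 4 libraries with low genes at 0 counts it called 0.

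The order of the members by level was taken per length, as FPKM. In Control_6w the order was Ccl6 (14.6 ± 6.39 FPKM, SD, n = 4), Ccl9 (8.57), Ccl7 (5.94), Ccl2 (4.99), Ccl12 (4.48), Ccl8 (3.74), Cxcl10 (1.08), Cx3cr1 (1.07) and Ccr2 (0.896 ± 0.194), and the ranges of each neighbouring pair overlapped. The ligands of the CC family thus stood above the receptors in mean FPKM. In IRR_6w the order was Ccl8 (54.3 ± 20.2 FPKM, SD, n = 4), Ccl7 (48.4), Ccl6 (31.6), Ccl12 (31.2), Ccl9 (26.9), Ccl2 (25.0), Cxcl10 (11.5), Ccr2 (10.1) and Cx3cr1 (2.69 ± 1.47). Only the last pair, Ccr2 and Cx3cr1, had ranges that did not overlap. Ccl8 stood 6th in Control_6w and 1st in IRR_6w in mean level. In the 1-day groups Ccl6 was again first, at 15.5 ± 4.69 FPKM in Control_1d and 22.9 ± 9.99 FPKM in IRR_1d (SD, n = 3 each), and every neighbouring pair overlapped.

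**Figure D4:**
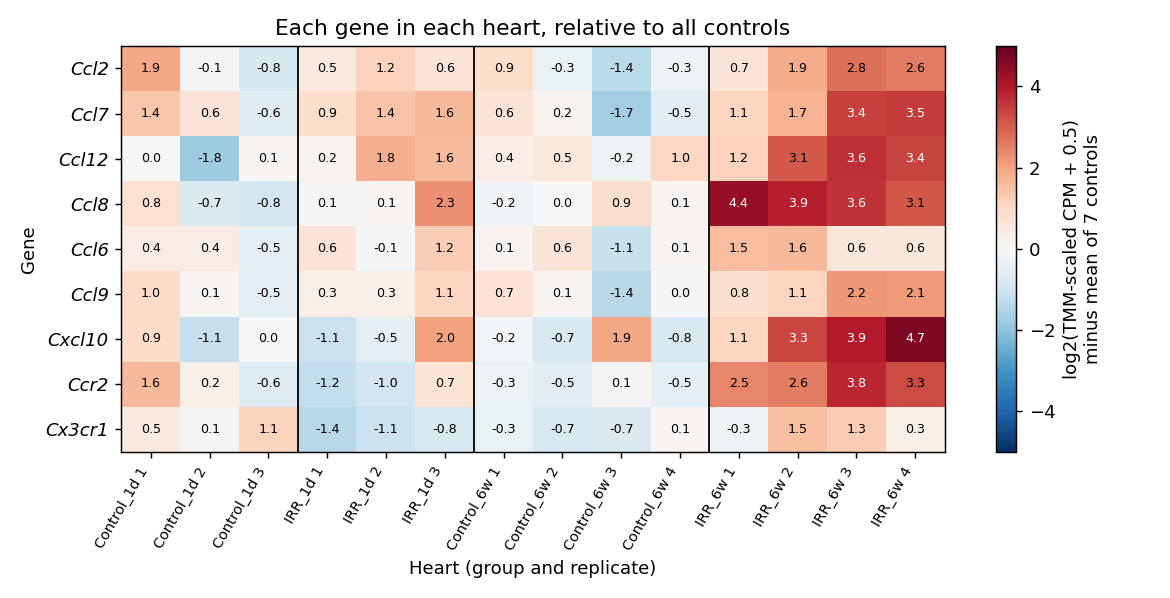
log2(TMM-scaled CPM + 0.5) of each gene in each heart, minus the mean of the 7 control hearts; red is above and blue below that mean, and black lines part the groups. In IRR_6w replicate 1 Ccl8 is at 4.4 and Cx3cr1 at -0.3, and in Control_6w replicate 3 Cxcl10 is at 1.9 while Ccl7 is at -1.7.

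Within a group the members shared the order of the hearts in part, which was described and not tested. IRR_6w replicate 1 was the lowest of its group in 7 of 9 members and the highest in Ccl8, and replicate 3 was the highest in 4. In IRR_1d replicate 1 was the lowest in 8 members and replicate 3 the highest in 7. In Control_1d replicate 1 was the highest in 6 and replicate 3 the lowest in 6, and in Control_6w replicate 3 was the lowest in 5. Over the 14 hearts, Pearson's r of log2 CPM was highest for Ccl7 with Ccl9 (0.97), Ccl2 with Ccl7 (0.94) and Ccl2 with Ccl9 (0.94), which lie in both chromosome 11 clusters. Ccl8 and Cxcl10 were each closest to Ccr2 (0.86 in both), while the Ccl8 and Ccl12 pair, 11784 bases apart, had 0.74. Ccl6 with Cx3cr1 had the lowest r, 0.16. These values describe 14 libraries that share treatment, depth and tissue makeup, and carry no p.

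For each member, genes among those outside the 9 members with the most similar log2 CPM over the 14 hearts are given, with Pearson's r as the measure. For Ccr2 this was Pfkp, a phosphofructokinase (r = 0.94). For Ccl8 they were Tns3 (r = 0.94) and Ctss, which encodes cathepsin S (r = 0.94), and for Cxcl10 Usp18 (r = 0.96) and Dtx3l (r = 0.94), both known as interferon-induced genes. Ccl2 was closest to Gm4070 and C3ar1, a complement receptor (r = 0.94 and 0.93), Ccl7 to Stat3 and Ms4a6d (0.95 and 0.94), Ccl9 to Ms4a4a and Crim1 (0.96 and 0.95) and Ccl12 to Slc15a3 (0.90). Ccl6, with Tmem119 and Tgfbi (0.89 and 0.87), and Cx3cr1, with Tpm4 and Nedd9 (0.80 and 0.79), had the least similar nearest genes. The genes given were different ones for each of the 9 members, and Ccl2, Ccl7 and Ccl9 had another member closer than any of them.

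The other chemokines, chemokine receptors and atypical receptors numbered 53, of which 37 passed the filter. At 6 weeks edgeR called 1 of 37 higher and 0 lower (0.237% of all genes were called higher). With the fold limits and an unadjusted p under 0.05, 3 were higher (3.69% of all genes) and 3 lower (1.75%), and 24 of 37 had a log2 fold change above 0, with a median of 0.61. The 3 lower genes were Ccl21a, Ccl25 and Ccr9, each with a Control_6w SD above its mean. In CPM these were 5.05 ± 7.50, 39.1 ± 73.6 and 70.2 ± 136 (SD, n = 4). The means of Ccl25 and Ccr9 in the other groups were at most 2.71 and 0.552 CPM. Control_6w holds the thymocyte-marked replicate 3, whose part in the Ccl25 and Ccr9 differences was not tested. By list, of 9 other CC ligands tested, 2 were above 0 at 6 weeks (median -0.91), against 9 of 12 other CXC, CX3C and XC ligands (1.04), 8 of 11 receptors (0.61) and 5 of 5 atypical receptors (0.70).

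The gene of each list with the highest mean FPKM over the 14 hearts was not called at 6 weeks. This rank differed between groups, since Ccl11 exceeded Ccl21a in mean FPKM in the 3 groups other than Control_6w, and Cxcl12 exceeded Pf4 in both control groups. Pf4, a platelet chemokine, had a log2 fold change of 0.39 (SE 0.41), Ackr3, which scavenges Cxcl12, stayed at 64.9 to 170 CPM over all Control_6w hearts and 111 to 152 CPM in IRR_6w, and Cxcr4, the receptor of Cxcl12, had -1.07 (SE 0.71), with 114 CPM in Control_6w replicate 3 alone. Ccl21a, a lymphoid ligand of Ccr7, had -3.14 (SE 1.28, edgeR adjusted p = 0.473), with 16.3 CPM in Control_6w replicate 1 and at most 1.77 CPM in the other Control_6w hearts. In the other comparisons edgeR called 0 of 37. At an unadjusted p under 0.05 with the fold limits, 0 were higher and 2 lower at 1 day (0.674% of all genes lower), 2 higher and 0 lower between the controls (2.72% higher), 9 higher and 0 lower between the irradiated groups (3.06% higher), and 2 higher and 0 lower for the change in effect (1.98% higher). DESeq2 called 1 of them between the irradiated groups (Cxcr6) and 0 in the other 3, and limma-voom called 0 in all 4.

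Of the marker lists of other cells, macrophages stood apart together with Ccr2 and Ccl8 at 6 weeks. The summed level of 12 macrophage genes was 413, 485, 197 and 451 CPM in Control_6w and 648, 975, 764 and 894 CPM in IRR_6w, with no overlap and means 2.12-fold apart. At 1 day it was 383, 357 and 437 CPM in Control_1d and 611, 474 and 581 CPM in IRR_1d, again apart, with means 1.42-fold apart. The list was thus higher at both times, whereas Ccr2 was called at 6 weeks and not at 1 day, with a change in effect that edgeR did not call. Of the 12 genes, 11 had a log2 fold change above 0 at 6 weeks and 0 were called (0 also at 1 day). The 2 highest per length over all hearts were the complement genes C1qb, at 31.8 to 75.6 CPM in Control_6w and 98.6 to 173 CPM in IRR_6w, and C1qa, at 14.7 to 76.8 CPM and 36.4 to 150 CPM. At most 1 of the 12 was at 0 counts in any heart. The part of macrophage number in the results was not tested.

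**Figure D5:**
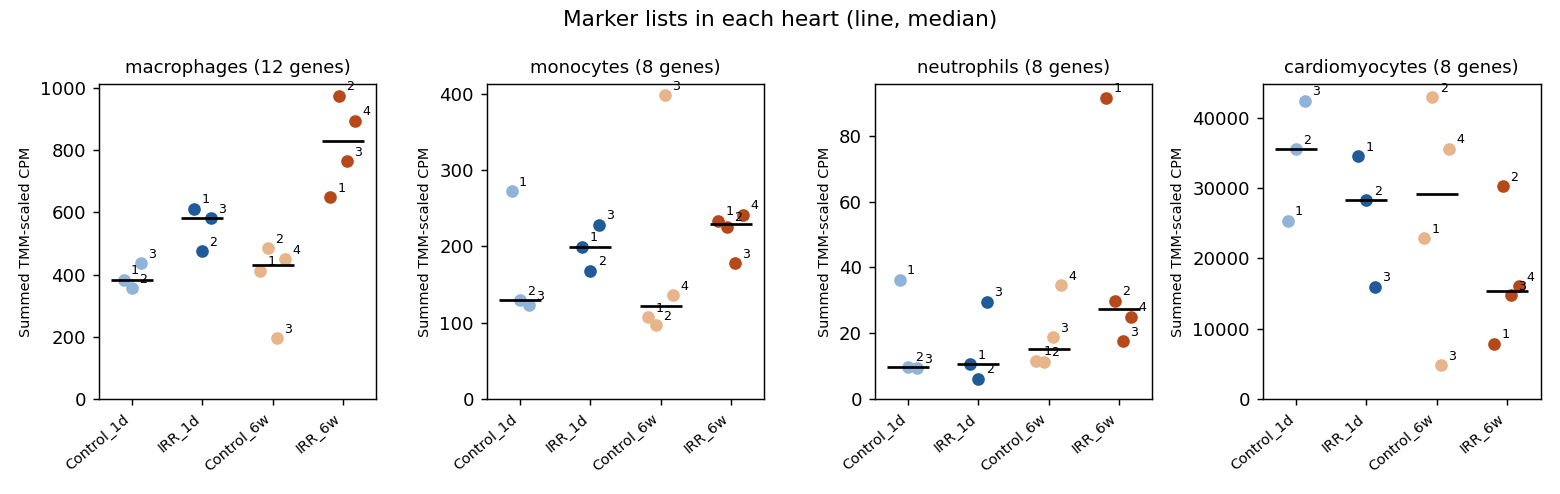
Summed TMM-scaled CPM of the marker genes of macrophages, monocytes, neutrophils and cardiomyocytes in each heart, by group, with medians as lines and replicate numbers beside the points. The macrophage list is 648 to 975 CPM in IRR_6w against 197 to 485 CPM in Control_6w, while the monocyte list overlaps at both times.

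The monocyte list of 8 genes other than Ccr2 overlapped between the groups, at 97.2 to 398 CPM in Control_6w and 178 to 241 CPM in IRR_6w. Its highest heart was Control_6w replicate 3, the one with thymocyte markers, and 5 of 8 genes were above 0 at 6 weeks with 0 called. Ly6c2, a defining gene of classical monocytes, was at 0.0761 to 6.66 CPM in Control_6w and 2.93 to 8.93 CPM in IRR_6w. Ms4a4c (0 to 0.918 and 4.26 to 42.4 CPM) and Chil3 (0 to 0.798 and 0.954 to 7.94 CPM) were higher and apart. Their log2 fold changes were 5.40 and 3.49 (edgeR adjusted p = 0.210 and 0.471). The remaining genes of the list overlapped, as Ly6c2 did. The neutrophil list also overlapped (11.3 to 34.6 and 17.7 to 91.5 CPM), as did the B cell list with all hearts in. Their means were 2.15-fold and 2.31-fold higher in IRR_6w, no less than for macrophages. In each, all 6 genes tested were above 0, with 0 called, and IRR_6w replicate 1 was the highest heart. The means of the T and NK cell list (0.0533-fold) and the dendritic cell list (0.934-fold) were lower. Of 13 lists, macrophages were the 1 apart at 6 weeks with all hearts in. Without the thymocyte-marked Control_6w replicate 3, 4 lists were higher and apart, namely macrophages, monocytes (97.2 to 136 and 178 to 241 CPM), B cells (4.13 to 7.84 and 10.7 to 60.1 CPM) and lung epithelium (0 to 0.837 and 0.950 to 420 CPM). At 1 day 4 lists were lower and apart beside the macrophage list, namely T and NK cells (3.62 to 12.2 CPM in Control_1d and 1.74 to 3.5 CPM in IRR_1d), B cells (4.73 to 32.9 and 0.580 to 2.32 CPM), dendritic cells (44.1 to 66.1 and 27.4 to 42.0 CPM) and endothelium (1280 to 1572 and 944 to 1133 CPM). These stand beside the lower Cx3cr1 at 1 day, and their part in it was not tested. The cardiomyocyte list overlapped at both times, at 4847 to 42914 CPM in Control_6w and 7901 to 30228 CPM in IRR_6w.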

How the data were processed

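Heart RNA of 14 mice was sequenced as 150-base paired reads. Per the labels and the study's methods, the authors used FastQC 0.11.8, Trim Galore 0.6.1, STAR 2.5.0a (mm10) and HTSeq, and deposited whole-number read counts per gene with coordinates and lengths. Counting mode, strand setting and annotation release are not given in the sources used here.

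From the deposited counts, 4 groups were fitted in 1 model with edgeR 4.0.16 (filterByExpr, TMM, quasi-likelihood test) in R 4.3.3. A gene was called at an adjusted p under 0.05 (Benjamini-Hochberg, 16034 genes) if its fold also exceeded 2 or fell short of 0.5. The test was checked on simulated counts. DESeq2 1.42.0 and limma 3.58.1 (voom) were alternatives. CPM is the count over the TMM-scaled library size, FPKM that value per kilobase of deposited length. By counting alone, 100 counts carry an error of about 10%, and 0 counts allow up to 3 (95% confidence). Reads lacked molecular identifiers, so this covers counting error only.

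Named genes were the members, the most abundant other chemokine genes, up to 2 genes outside the members most like each member and list markers, and others (Cx3cl1, Cxcr3, Ccl11, Cxcl12, Cxcr6, Ccl25, Ccr9) were picked after their values were seen. Some genes that this rule names are not reported here. Members, lists and libraries left out were chosen with earlier results of these data known, and the second κB form after the promoters were seen. Motifs were searched in RefSeq windows (GRCm38.p6).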

Additional observations from a re-analysis of the deposited data

Results flagged for a closer look

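Cxcl10 in Control_6w held 1 heart far from the others. Replicate 3 stood at 7.06 CPM and the other 3 at 0.674 to 1.29 CPM, and the gap took a share of 0.903 of the range of the group. Replicate 3 is also the library with thymocyte markers, at 2278 CPM against at most 36.7 CPM in the other Control_6w hearts, and with 1390 CPM of T and NK cell markers. Their part in the Cxcl10 value was not tested. Looking at 18 groups of 4 hearts, chance alone brings about 1 group in 20 over the limit used.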

How the results depend on the processing

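All 9 members stayed above 0 at 6 weeks in all 23 alternatives, and their calls did not hold in all of them. Beside 2 calls, the count was 7 by DESeq2, 1 by limma-voom, 9 at an unadjusted p, 3 with library totals or no filter (Ccl7 added), 4 without 3 libraries of mixed tissue, 0 without the 4 libraries with missing low genes (chosen after seeing the data) and 0 to 3 leaving out each library. For limma-voom, library totals, no filter and leaving out each library, the share of all genes called is not given. In comparisons other than that at 6 weeks, the same holds without the 4 libraries. Those counts therefore cannot be set against that share. Same-numbered hearts did not deviate together (correlations of -0.364 to 0.371), so the numbers do not pair them, and with a replicate block the count was 0. At an unadjusted p the count was 2 at 1 day, 1 between controls, 5 between irradiated groups and 5 for the change in effect. Between irradiated groups it was 1 with no filter, 3 by DESeq2, 3 without mixed tissue and 0 to 1 leaving out each library, and for the change in effect 1, 2 and 2 with no filter, by DESeq2 and without mixed tissue. Of the other chemokine genes at 6 weeks, 2 were called by DESeq2 or without mixed tissue (all higher), 2 with no filter (1 higher and 1 lower), 0 by limma-voom, on only the groups compared, with a replicate block or without the 4 libraries, and 0 to 1 leaving out each library. Between irradiated groups it was 1 by DESeq2 and 1 without mixed tissue.

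Signs reversed only where no call stood. At 1 day Ccl2 was at 0.23 by limma-voom, 0.34 with a replicate block, 0.0238 without mixed tissue, 1.26 without the 4 libraries and -0.45 to 1.28 leaving out each library. Ccl9 was at -0.0118 without mixed tissue and -0.00669 to 0.79 leaving out each library, and Cxcl10 at -0.16 with a replicate block, -1.33 without mixed tissue and -1.31 to 1.64 leaving out each library. Between controls Ccl6 was at 0.16 and Cxcl10 at -0.98 without mixed tissue, and Cxcl10 at -0.32 with a replicate block. Leaving out each library gave -1.49 to 0.38 for Ccl2, -0.35 to 0.15 for Ccl6, -0.61 to 0.20 for Ccl9 and -0.97 to 1.36 for Cxcl10. For the change in effect Ccl12 was at -0.21 without the 4 libraries. Fewer libraries entered the fits that left libraries out, while limma-voom and the replicate block used all of them. The cause of the reversals was not tested. Scaling by library totals instead raised the median log2 fold change of the tested genes (by 0.0758 for the day-1 contrast, 0.233 for the week-6 contrast, 0.161 between controls, 0.318 between irradiated groups and 0.154 for the change in effect) and reversed no member.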
